A study of Penicillium oxalicum with 10 samples.

Results

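Besides nitrate, moulds take up ammonium, amino acids and peptides, and they recover nitrogen from purines and urea. In this salvage route urate oxidase oxidises urate and, further on, allantoinase opens the ring of allantoin. Urease, a nickel enzyme that needs accessory proteins for its metal centre, splits urea into ammonium and carbon dioxide. Ammonium enters through transporters of the Amt family and is built into glutamate and glutamine. Described here are the genes for these tasks in Penicillium oxalicum, a cellulose-degrading soil mould, taken by their annotation text alone: ammonium, amino acid permease, amino acid transport, urea transport, urease, uricase, urate oxidase, allantoin, purine permease, oligopeptide transport or peptide transport. Among the 9859 genes deposited, 29 matched, 4 of these were among 7 loci the rule sets aside, and 25 remained. All 25 matched in the KEGG Orthology text and 0 in the product column, which calls each a hypothetical protein.

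The set holds 15 amino acid transporters, 4 urease genes (the enzyme and 3 accessory proteins), 3 genes annotated as ammonium transporters, 1 urate oxidase, 1 allantoinase and 1 oligopeptide transporter. No gene matched for urea transport or purine permease. For PDE_07942 the annotation contradicts itself: its KEGG name is ammonium transporter, from the fifth-ranked hit, while its gene ontology terms are those of a zinc-binding transcription factor in the nucleus. It is described by its locus and is not counted as a transporter below.

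Mycelia were profiled in 10 libraries, 1 of the wild type M12 and 1 of each of 9 strains. These are labelled as deletions of the flb genes A to E (flbA, flbB, flbC, flbD and flbE), of stuA and swi6, and of wetA and abaA. The libraries are called below by the deleted gene. Each culture was started from conidia for 20 h at 30 °C in a modified Czapek medium with 2% glucose, and its mycelia then spent 48 h in fresh medium. The labels do not name the nitrogen source. With 1 library per genotype no value has a replicate error and no test was possible, and the ranges in parentheses after a fold are 95% intervals for counting error only.

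Depth ran from 3.10 megareads (10 to the sixth reads each) in the flbA deletion library to 7.60 megareads in the flbD-labelled one. The gene annotated SOK2 (PDE_04095), paired with stuA by protein family, had 1 read in the stuA deletion library and at least 483 elsewhere, and the chromobox gene PDE_08896, paired with swi6 in the same way, had 1 read in the swi6 deletion library and at least 66 elsewhere. The FlbD-named gene PDE_03008, by contrast, had 2375 reads in the flbD-labelled library, and the gene of the AbaA family (PDE_02932) had 993 in the abaA-labelled one, more than in any other. Those libraries are therefore named by their labels only. The labels of the flbA, flbB, flbC, flbE and wetA deletion libraries were not checked against their own genes. The sporulation activator BrlA (PDE_00087) was at 248 RPKM (reads per kilobase of coding length per megaread) in wild type and between 0.249 and 107 RPKM in the deletion libraries. The scytalone dehydratase PDE_09236, an enzyme of melanin synthesis, was at 865 RPKM in wild type and at most 110.2 RPKM elsewhere. The part of these regulators and of sporulation in the differences below was not tested.

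Of the 25 genes, urate oxidase was furthest from wild type in 7 of the 9 deletion libraries, both by RPKM fold and in log2(RPKM + 1), and in 5 of these allantoinase came next by both measures. Since each library is RNA of whole mycelia, more expressing cells and more RNA per cell cannot be told apart for this or any gene below. Urate oxidase (PDE_03841), which oxidises urate, was at 41.4 RPKM in wild type, 84.4 in flbA and 227 in swi6. It reached 845 RPKM in flbB, 902 in flbC, 757 in flbE, 1054 in wetA and 893 in stuA, and 749 and 1184 RPKM in the libraries labelled flbD and abaA deletion. Wild type was thus the lowest library, followed by flbA and swi6, and the remaining 7 lay far above them. Relative to wild type the level was 2.04-fold higher (1.68 to 2.47) in flbA, 5.49-fold higher (4.71 to 6.43) in swi6 and 28.6-fold higher (24.8 to 33.1) in the abaA-labelled library. The flbA difference, 1.01 on the log2(RPKM + 1) scale used for counting below, is just past the 2-fold mark of 1. It was 0.94 with a pseudocount of 5 RPKM. Scaling by median-of-ratios in place of read totals made it 1.72, and totals without the most abundant gene of each library made it 1.36. Among the 7 high libraries, the counting intervals of the flbD-labelled library (729 to 769.6 RPKM) and flbE (736 to 778 RPKM) overlapped, as did those of flbC (873 to 932 RPKM) and stuA (870.1 to 916 RPKM), so these neighbours were not distinguishable at this depth.

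Allantoinase (PDE_04944), which opens the ring of allantoin, was also lowest in wild type. Its level was 9.01 RPKM in wild type, 14.9 in swi6 and 26.7 in flbA. In the others it was 101 RPKM (flbB), 64.0 RPKM (flbC), 76.4 RPKM (labelled flbD), 122 RPKM (flbE), 86.4 RPKM (wetA), 73.1 RPKM (labelled abaA) and 99.2 RPKM (stuA). The same 3 libraries as for urate oxidase were lowest, with swi6 and flbA in the reverse order. Among the other 7 the orders differed: the abaA-labelled library was highest for urate oxidase and only above flbC for allantoinase, and flbE was highest for allantoinase and only above the flbD-labelled library for urate oxidase. The fold over wild type ran from 1.66 (1.23 to 2.24) in the swi6 to 13.5 (10.6 to 17.4) in the flbE deletion library.

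**Figure D1:**
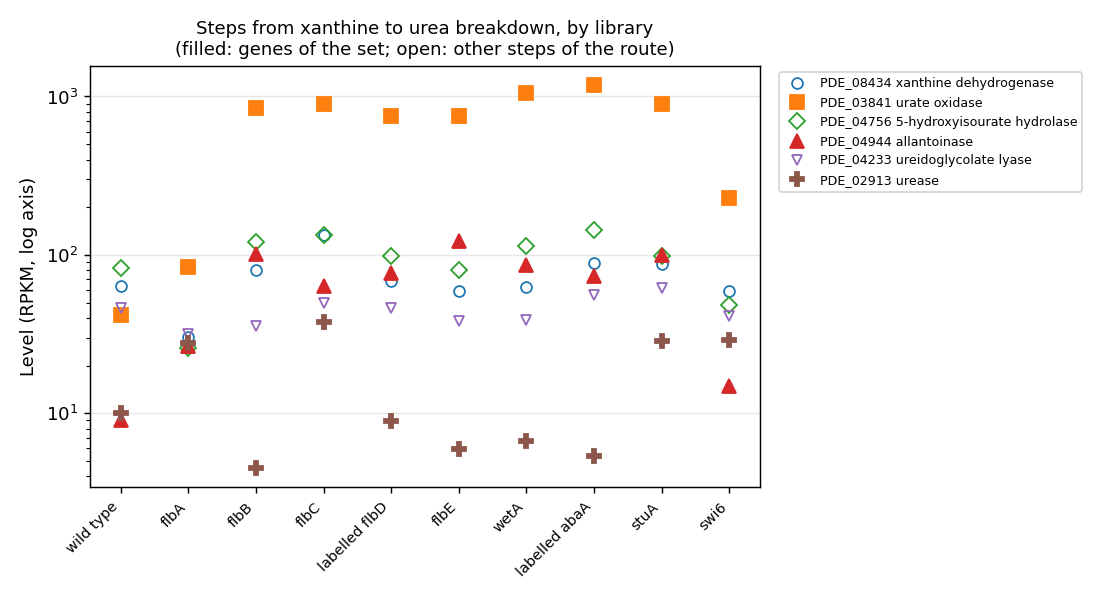
Level in RPKM (log axis) of 6 annotated steps from xanthine to urea breakdown, not the complete route, in each of the 10 libraries. Filled marks are genes of the set and open marks the other steps. Urate oxidase spans 41.4 to 1184 RPKM and allantoinase 9.01 to 122 RPKM, while ureidoglycolate lyase lies between 31.6 and 61.6 RPKM.

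The other annotated steps of the same route spanned less. These 3 genes were chosen as steps of the route after their values were seen. No gene matched the word allantoicase, so the steps plotted are not the complete route. Xanthine dehydrogenase (PDE_08434), which makes urate, spanned 30.3 to 134 RPKM over the 10 libraries, a 4.41-fold range, against 28.6-fold for urate oxidase. For 5-hydroxyisourate hydrolase (PDE_04756), which acts on the product of urate oxidase, the range was 5.51-fold, from 26.0 to 143 RPKM, and it was 13.5-fold for allantoinase. Ureidoglycolate lyase (PDE_04233), which releases urea, had the narrowest, 1.95-fold. Urate oxidase was past 2-fold above wild type in 9 deletion libraries and allantoinase in 8, whereas xanthine dehydrogenase was in 1, the flbC deletion library, and the hydrolase and the lyase in 0. In the flbA deletion library xanthine dehydrogenase (30.3 against 63.6 RPKM in wild type) and the hydrolase (26.0 against 83.0 RPKM) were past 2-fold lower. The plot of the route by library shows the lyase nearly level while the filled marks of urate oxidase and allantoinase are spread widely.

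Urease (PDE_02913) was higher in the libraries of flbA, flbC, stuA and swi6 and not in the rest. It was at 9.98 RPKM in wild type and at 27.7 in flbA, 37.9 in flbC, 28.4 in stuA and 29.1 in swi6. In the flbB, flbE and wetA deletion libraries it was at 4.50, 5.95 and 6.71 RPKM, and in those labelled flbD and abaA at 8.94 and 5.36 RPKM. The 4 high libraries were grouped by these values, so their lying above the other 6 is by construction. Their lowest counting interval (24.2 to 31.6 RPKM in flbA) was clear of the highest of the other 6 (8.35 to 11.8 RPKM in wild type). The folds over wild type in them were 2.77 (2.22 to 3.47), 3.80 (3.11 to 4.65), 2.85 (2.35 to 3.48) and 2.92 (2.39 to 3.58). In the flbB deletion library the level was 2.22-fold lower than in wild type (1.67 to 2.97), just short of the 2-fold mark on the log2(RPKM + 1) scale used for counting below.

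The 3 urease accessory genes did not share this order. PDE_08724, of the UreG type, the GTPase that helps load nickel, was highest in wild type at 102 RPKM and lower in every deletion library. It stood at 43.4 RPKM in flbA, 26.5 in flbB, 68.9 in flbC, 32.4 in flbE, 44.7 in stuA and 42.4 in swi6. The libraries labelled flbD and abaA deletion had 44.8 and 38.0 RPKM, and the wetA deletion library was lowest at 13.2 RPKM, 7.74-fold below wild type (6.01 to 10.1). It was past 2-fold lower in 8 of the 9 comparisons, the flbC deletion library being the exception at 1.48-fold (1.26 to 1.73). With median-of-ratios scaling the difference in log2 was -0.50 in flbA, -0.99 in the flbD-labelled library and -0.98 in stuA, short of the mark, and it stayed past it in 5 libraries.

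PDE_03580, of the UreF type, another accessory protein of nickel insertion, was by contrast highest in the wetA deletion library. Its level was 44.0 RPKM in wild type, 36.4 in flbA, 61.6 in stuA and 67.8 in swi6. It was 156 RPKM in flbB, 109 in flbC, 116 in flbE and 295 in wetA, and 126 and 231 RPKM in those labelled flbD and abaA. The wetA deletion library therefore held the highest level of PDE_03580, 6.71-fold above wild type (5.83 to 7.75), and the lowest of PDE_08724. PDE_03580 was past 2-fold higher in 6 deletion libraries.

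PDE_07740, of the UreD type, was the most abundant urease gene by mean RPKM and the least variable of the 4. It was at 165 RPKM in wild type, 46.4 in flbA, 139 in flbB, 87.3 in flbC, 181 in flbE and 234 in wetA. The level was 317 RPKM in stuA and 131 RPKM in swi6, with 167 and 219 RPKM in those labelled flbD and abaA. Only the flbA deletion library was past 2-fold from wild type, at 3.56-fold lower (3.03 to 4.21). With median-of-ratios scaling, which sets the median gene level between libraries, flbC (-1.01) and stuA (1.12) also passed the mark of 1 in log2.

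**Figure D2:**
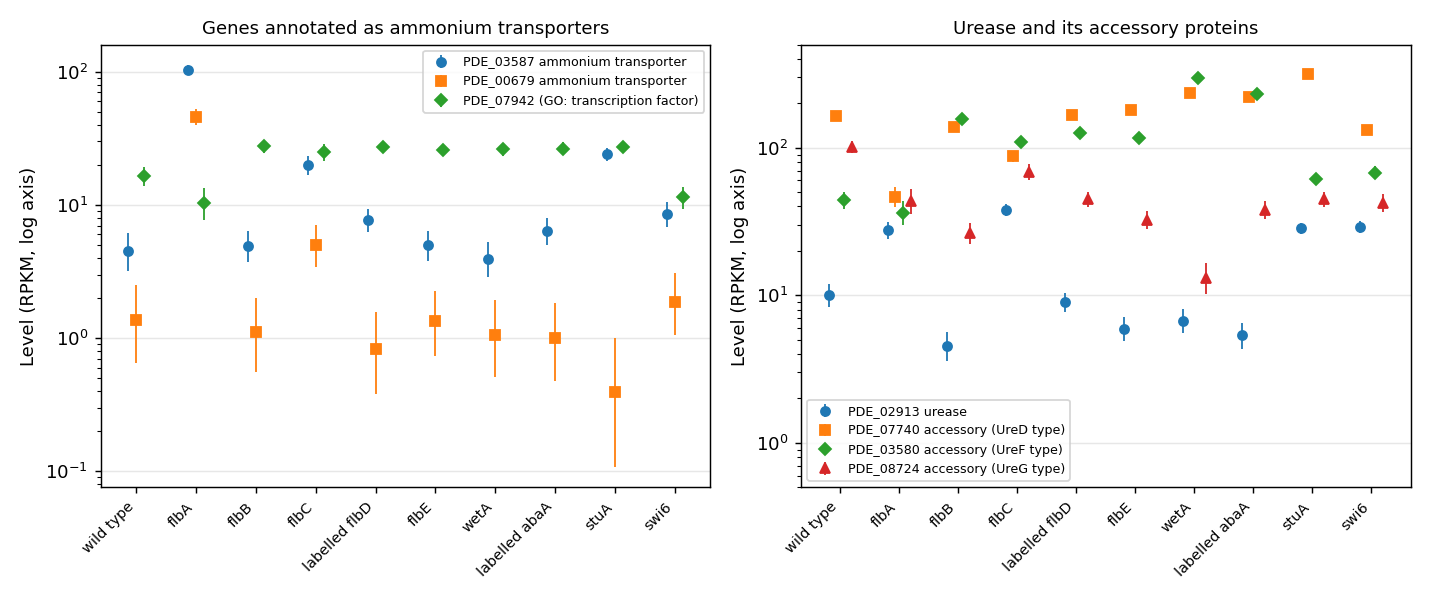
Level in RPKM (log axis) by library of the genes annotated as ammonium transporters (left) and of urease with its accessory genes (right), with points for the 10 single libraries and bars for 95% Poisson counting intervals. PDE_03587 and PDE_00679 peak in the flbA deletion library at 104 and 45.7 RPKM, and urease is at 27.7 to 37.9 RPKM in the flbA, flbC, stuA and swi6 deletion libraries against 4.50 to 9.98 RPKM in the other 6.

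Both ammonium transporters of the Amt family were highest in the flbA deletion library. PDE_03587 was at 4.47 RPKM in wild type, 104 in flbA, 19.9 in flbC, 24.0 in stuA and 8.53 in swi6. It was at 4.89 RPKM in flbB, 4.96 in flbE and 3.93 in wetA, and at 7.70 and 6.38 RPKM in those labelled flbD and abaA. The flbA deletion library stood clear of all others, 23.2-fold above wild type (16.8 to 33.0), and the flbC and stuA deletion libraries were 4.46-fold (3.12 to 6.51) and 5.37-fold (3.83 to 7.71) above it.

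PDE_00679 was weakly expressed outside the flbA deletion library, where it had 45.7 RPKM from 203 reads. Wild type had 1.36 RPKM from 10 reads, flbC 5.03 RPKM and swi6 1.87 RPKM, and flbB, flbE and wetA had 1.12, 1.35 and 1.06 RPKM. The libraries labelled flbD and abaA had 0.828 and 0.993 RPKM, and the stuA deletion library was lowest at 0.393 RPKM from 4 reads. Relative to wild type it was 33.7-fold higher (18.0 to 71.3) in the flbA and 3.71-fold higher (1.78 to 8.46) in the flbC deletion library. In the stuA deletion library, where PDE_03587 was higher than in wild type, PDE_00679 was 3.45-fold lower with an interval of 0.995 to 15.1, so a difference was not detectable at this depth.

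PDE_07942, the gene with conflicting annotation, spanned only a 2.69-fold range. It had 16.5 RPKM in wild type, 10.3 in flbA and 11.4 in swi6, and 24.96 to 27.6 RPKM in the remaining 7. Unlike the Amt transporters it was lowest in the flbA deletion library, and it was past 2-fold in 0 comparisons by read totals and, with median-of-ratios scaling, in flbB (1.10 in log2) and, just past the mark, in flbE.

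The oligopeptide transporter PDE_05978, of the proton-coupled POT family that imports short peptides, was at 49.9 RPKM in wild type. It had 265 RPKM in swi6, 146 in flbA, 64.1 in flbC and 60.4 in stuA. The flbB, flbE and wetA deletion libraries had 21.3, 29.5 and 30.1 RPKM, and those labelled flbD and abaA 19.3 and 34.1 RPKM. The swi6 deletion library was highest, 5.30-fold above wild type (4.80 to 5.87), and the flbD-labelled library lowest, 2.59-fold below it (2.22 to 3.03). The libraries above wild type for this gene were again those of flbA, flbC, stuA and swi6, as for urease. In flbC it was 1.28-fold higher (1.13 to 1.46) and in stuA 1.21-fold higher (1.07 to 1.36), both short of the 2-fold mark. Below wild type for both genes were 4 deletion libraries (flbB, flbE, wetA and the abaA-labelled one). How many of all kept genes show this pattern was not counted. In the flbD-labelled library urease was within counting error of wild type, 1.12-fold lower (0.883 to 1.41), and 0.02 above it in log2 with median-of-ratios scaling.

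Among the 15 amino acid transporters, 11 carry the KEGG name yeast amino acid transporter, and PDE_07991, PDE_05646, PDE_03612 and PDE_02303 belong to other transporter families. The name came from the hit of rank 3 for PDE_09673 and of rank 2 for PDE_01211, PDE_00281 and PDE_09851. The 15 carry no gene ontology function term, so they are called transporters by the KEGG name alone. The most abundant was PDE_04432, at a level in wild type above 98.2% of the 9134 genes that passed the expression minimum (a mean of at least 1 RPKM). It had 636 RPKM in wild type, 445 in flbB, 491 in flbE, 349 in wetA, 524 in stuA and 285 in swi6, with 663 and 390.2 RPKM in those labelled flbD and abaA. The flbA and flbC deletion libraries lay apart from these at 50.9 and 63.5 RPKM, 12.5-fold (11.1 to 14.2) and 10.02-fold (9.13 to 11.02) below wild type. In swi6 it was 2.23-fold lower (2.13 to 2.34), or -0.96 in log2 with median-of-ratios scaling.

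PDE_06018 separated the flbA and flbC deletion libraries, which PDE_04432 had placed together. It had 132 RPKM in wild type, 325 in flbC, 254 in swi6 and 176 in stuA, and 1.57 RPKM, from 8 reads, in flbA. Levels were 63.5 RPKM in flbB, 70.5 in flbE and 91.8 in wetA, and 123 and 92.4 RPKM in those labelled flbD and abaA. The flbA deletion library was 83.7-fold below wild type (42.4 to 194), the largest fold of any gene of the set in any comparison, and the flbC deletion library was 2.47-fold above it (2.30 to 2.66).

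A pair of transporters, PDE_09143 and PDE_09673, shared with urate oxidase a level past 2-fold above wild type in all 9 deletion libraries. PDE_09143 had 30.8 RPKM in wild type, 110.1 in flbA, 140.1 in flbB, 140.2 in flbC, 124 in flbE, 177 in wetA, 269.5 in stuA and 115 in swi6. In the libraries labelled flbD and abaA it had 137 and 169 RPKM. Wild type was the only low library and stuA the highest, 8.74-fold above it (7.71 to 9.94).

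PDE_09673 had 7.45 RPKM in wild type, 35.3 RPKM in both flbA and flbB, 65.5 in flbC, 42.4 in flbE, 49.7 in wetA, 83.6 in stuA and 69.1 in swi6. Those labelled flbD and abaA had 52.9 and 48.1 RPKM. Its highest fold over wild type, 11.2 (8.69 to 14.7), was likewise in the stuA deletion library. These are 3 of the 25 genes, against 1.28% of all kept genes higher in all 9 libraries, and 0 of the 25 were lower in all 9, against 2.23%. The single wild-type library enters every one of these comparisons and has no replicate.

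PDE_01211 was highest in the libraries labelled abaA deletion (241 RPKM) and of wetA (208 RPKM) and lowest in flbA (19.8 RPKM). Wild type had 70.8 RPKM, close to the 74.4, 72.4 and 71.5 RPKM of flbC, stuA and swi6. The flbB and flbE libraries had 105 and 107 RPKM, and the flbD-labelled one 146 RPKM. The flbC, stuA and swi6 values were within counting error of wild type, and the flbA deletion library was 3.58-fold lower (2.91 to 4.43).

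PDE_00321 was highest in the flbA deletion library, clear of the other 9. It had 50.6 RPKM there against 9.14 RPKM in wild type, 5.53-fold higher (4.28 to 7.22), and between 7.23 RPKM (flbE) and 15.3 RPKM (wetA) in the other 8.

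**Figure D3:**
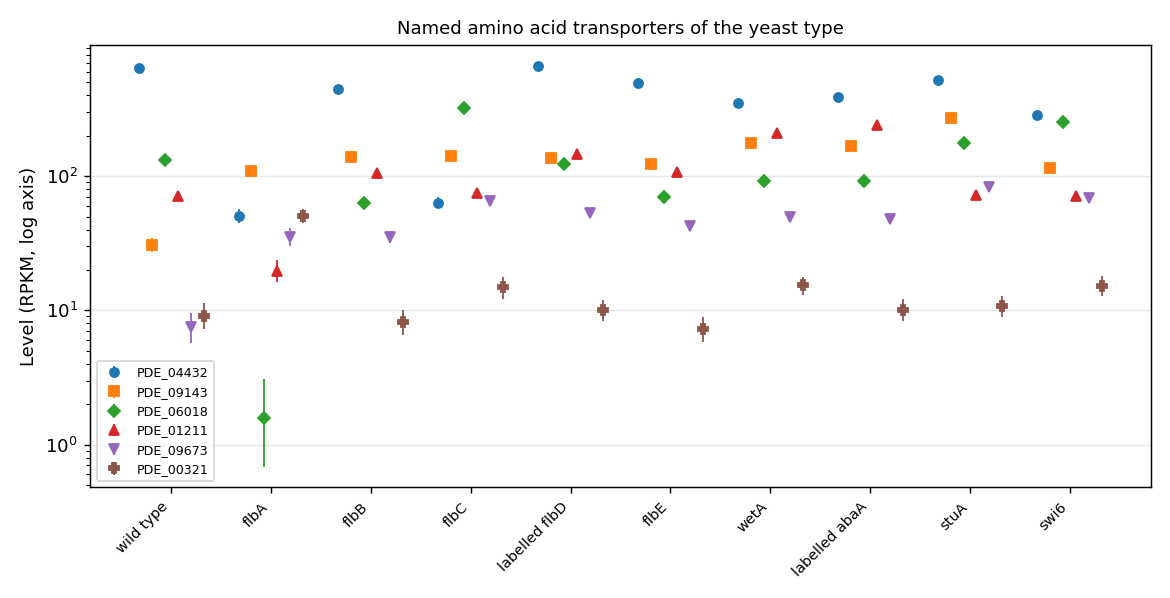
Level in RPKM (log axis) of 6 amino acid transporters in the 10 libraries, with points for single libraries and bars for 95% Poisson counting intervals. PDE_09143 and PDE_09673 are lowest in wild type at 30.8 and 7.45 RPKM, and PDE_06018 is at 1.57 RPKM in the flbA deletion library, where PDE_00321 is at its highest, 50.6 RPKM.

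The other 9 amino acid transporters varied less or were weakly expressed. PDE_05646, of the proton-coupled SLC36 family, had 40.9 RPKM in wild type and was past 2-fold higher in 6 deletion libraries, the highest being wetA at 131 RPKM. PDE_04259 had 2.48 RPKM in wild type and 20.2 and 17.9 RPKM in the flbA and stuA deletion libraries, and it was also past 2-fold higher in flbB (6.62 RPKM) and the abaA-labelled library (8.64 RPKM). The SLC38-type PDE_03612 (20.8 to 49.4 RPKM), the SLC32-type PDE_02303 (16.9 to 45.9 RPKM) and PDE_00281 (17.0 to 37.3 RPKM) were past 2-fold in no comparison. Of the rest, PDE_09031 spanned 10.8 to 58.3 RPKM and PDE_07991 2.98 to 22.0 RPKM, both lowest and past 2-fold lower in the flbA deletion library. Their differences there were -1.41 and -1.99 in log2(RPKM + 1). With median-of-ratios scaling 5 genes of the set were lower in flbA, against 8 by read totals. PDE_07991 was past 2-fold lower in flbB too, at 5.37 RPKM against 14.9 RPKM in wild type. PDE_09851 stayed at or under 6.22 RPKM and PDE_04992 at or under 3.91 RPKM in every library. PDE_09851 was past 2-fold lower in flbA, at 1.88 RPKM from 10 reads against 6.12 RPKM in wild type. The family has many similar members, and the deposited counts are of reads placed at 1 position only, so reads shared between near-identical copies would not enter them.

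The set was then set against all genes. Counted were genes whose log2(RPKM + 1) differed from wild type by at least 1, that is 2-fold after adding 1 RPKM, among the 9134 kept genes, which include all 25 of the set. In the flbA deletion library 10 of the 25 were higher and 8 lower, where 9.8% of all kept genes were higher and 37.4% lower. Scaling by median-of-ratios in place of read totals made this 12 higher and 5 lower, where 20.4% and 23.1% of all kept genes were higher and lower.

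In the flbB deletion library 7 were higher and 4 lower (all genes 12% and 23%), or 8 higher and 1 lower with median-of-ratios scaling (all genes 17.5% and 12.7%). For the flbC deletion library the counts were 10 and 1 (14.6% and 8.85%), for the flbD-labelled library 7 and 2 (11.7% and 12.7%), and for the flbE deletion library 6 and 1 (10.9% and 21.2%). The wetA deletion library had 7 higher and 1 lower (13.8% and 20.9%), and the abaA-labelled library 8 and 1 (15.2% and 12.3%). In the stuA deletion library 7 were higher and 1 lower (13.3% and 14.6%), or 9 and 0 after median-of-ratios scaling (15.8% and 11.7%). The swi6 deletion library had 5 and 2 (11% and 11.9%), or 6 and 1 after that scaling (13.5% and 9.46%).

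Expressed as shares with levels scaled by read totals, 20.0% (swi6) to 40.0% (flbA and flbC) of the set were higher, above the share of all genes in each of the 9 comparisons, and 4.0% to 32.0% were lower, below that share in each. No test stands behind these shares, and the comparisons share the wild-type library. The single gene lower in the wetA, stuA, flbE and abaA-labelled libraries was in each case PDE_08724, of the UreG type.

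**Figure D4:**
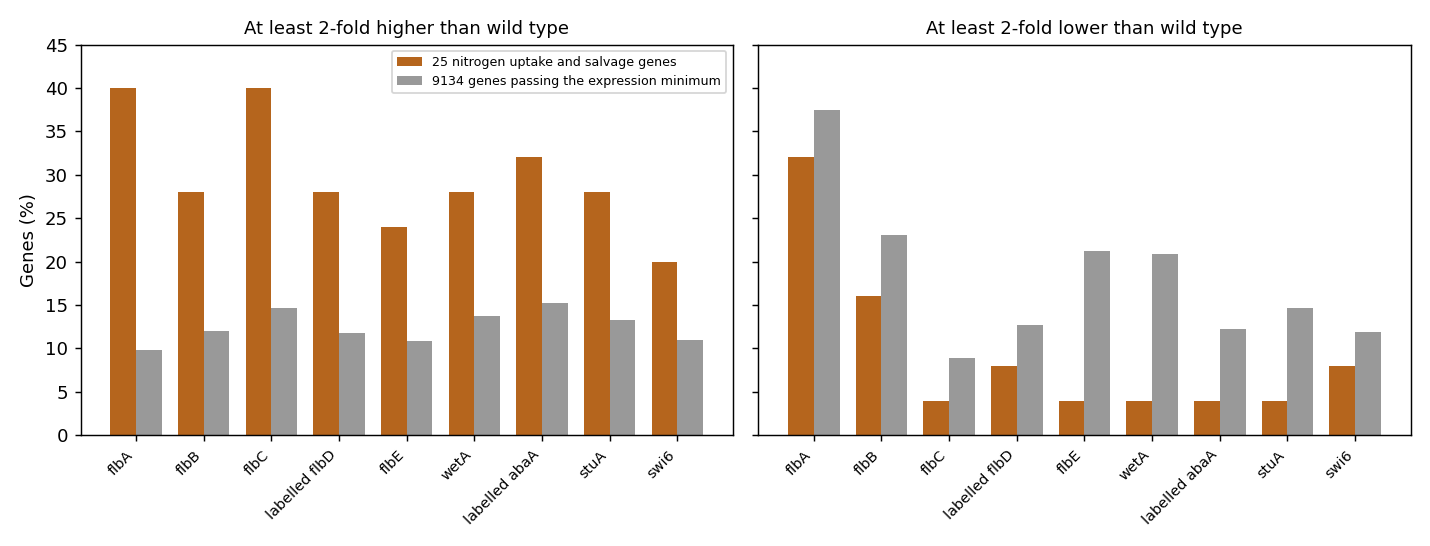
Percent of genes at least 2-fold higher (left) or lower (right) than wild type in each deletion library, with bars for the 25 genes of the set and for all 9134 kept genes. The set's share of higher genes is 20.0% to 40.0% against 9.8% to 15.2% of all genes.

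The median difference of the 25 genes from wild type lay above the median of all kept genes in every comparison. In log2(RPKM + 1), the set's median was 0.18 in the flbA deletion library against -0.64 for all genes, the widest gap, and -0.15 in the flbB deletion library against -0.40, the narrowest. With median-of-ratios scaling the set's median was 0.88 in flbA and turned to 0.22 in flbB, against 0.01 and -0.01 for all genes. In the flbC deletion library it was 0.57 against 0.12, and in the stuA deletion library 0.48 against -0.15. Within the set the 15 amino acid transporters had a median of -0.24 in the flbA deletion library, below that of the whole set.

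By their reads, the 25 genes made up 0.237% of the wild-type library (95% Wilson interval 0.233 to 0.241), 0.158% of the flbA (0.154 to 0.162) and 0.404% of the stuA deletion library (0.399 to 0.409). The other 7 libraries lay between 0.276% in the swi6 deletion library and 0.400% in the abaA-labelled library. The flbA deletion library was thus lowest, although 10 of the genes were past 2-fold higher there. In that library 27.9% of all reads fell on the gene PDE_06605, against 7.73% in wild type, and its part in the lower share was not tested. Within the set, the transporter PDE_04432 held 5620 of the 12206 reads in wild type and 271 of the 4902 in the flbA deletion library.

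**Figure D5:**
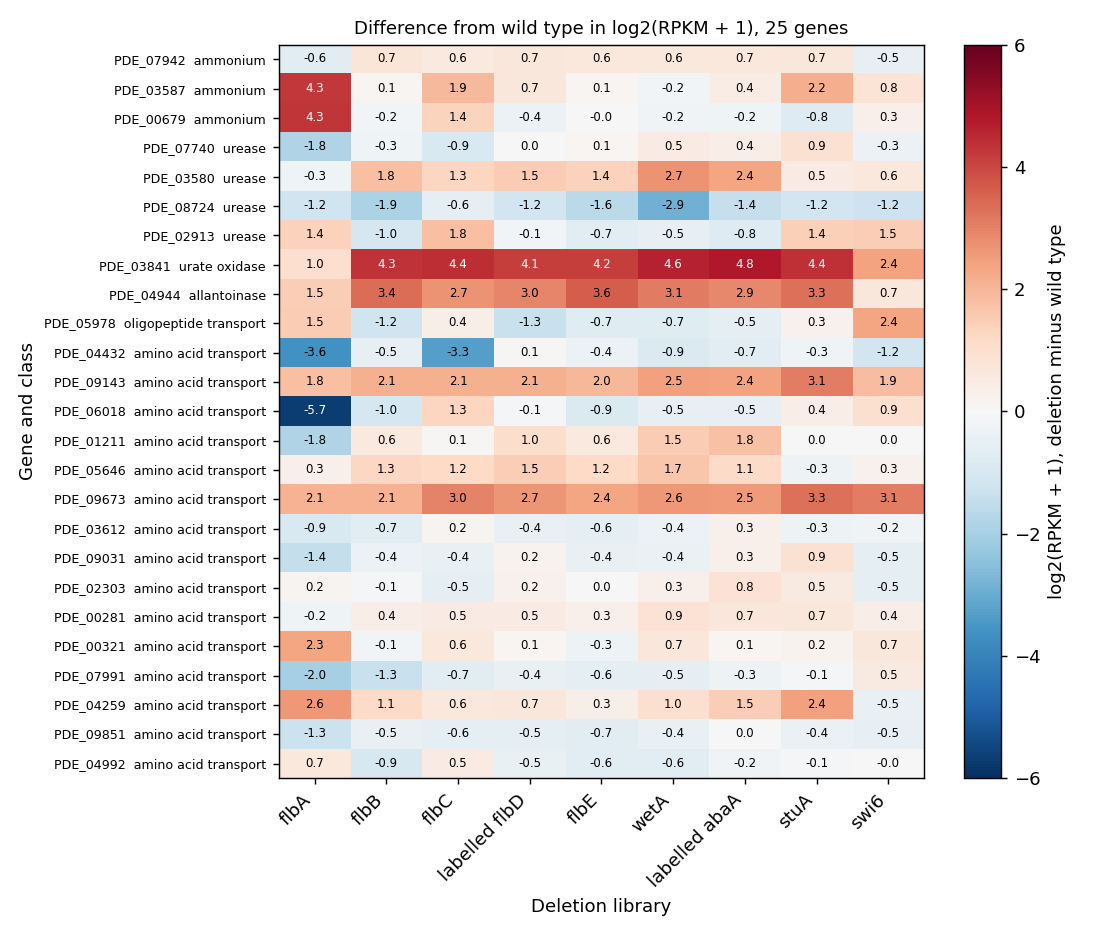
Difference from wild type in log2(RPKM + 1) for the 25 genes (rows, by class) in the 9 deletion libraries (columns), with red for higher and blue for lower. The row for urate oxidase is red throughout, from 1.01 in the flbA deletion library to 4.80 in the abaA-labelled library, and the flbA column holds the extremes of PDE_06018 (-5.69) and PDE_00679 (4.31).

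Genes standing apart in 1 library, at least 2-fold above or below all 9 others on the same scale, numbered 8 of 25, or 32.0%, against 24.8% of all kept genes. They were found in wild type and the flbA deletion library only. Wild type was the low library for PDE_03841, PDE_09143 and PDE_09673, which follows from their being higher in all 9 comparisons. The flbA deletion library was the high one for PDE_03587, PDE_00679 and PDE_00321 and the low one for PDE_06018 and PDE_01211. Among all kept genes 2.09% stood above and 13.8% below the others in the flbA deletion library. Without that library, the shallowest, 6 genes of the set stood apart. That library also held the lowest level of 11 of the 25 genes (44.0%), close to the 42.4% of all kept genes with their sole lowest level there, and the highest of 5 (20.0%, against 10.5%), as the heat map of differences shows.

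The genes that use the imported or salvaged nitrogen were read beside the set, from lists of annotation words. For ammonium assimilation 8 genes matched, 3 of which are folylpolyglutamate synthases of folate metabolism. In the flbA deletion library 3 of the 8 were past 2-fold higher and 2 lower, where 9.8% and 37.4% of all kept genes were. The 2 lower were glutamate dehydrogenase PDE_06171 (184 against 625 RPKM in wild type) and glutamine synthetase PDE_04219 (27.1 against 59.7 RPKM). Glutamine synthetase PDE_08346 was highest in flbA (983 RPKM) and lowest in wild type (263 RPKM). In the other libraries 1 to 3 were higher and 0 to 2 lower, where 10.9% to 15.2% of all kept genes were higher and 8.85% to 23% lower. NADP-dependent glutamate dehydrogenase (PDE_06117), which fixes ammonium into glutamate, had 26.4 RPKM in wild type, 827 in flbA, 108 in stuA and 55.2 in flbC. It was at 5.01 RPKM in flbB, 11.001 in flbE, 5.12 in wetA and 19.4 in swi6, and at 52.9 and 10.6 RPKM in those labelled flbD and abaA. The counting intervals of flbC (49.5 to 61.4 RPKM) and the flbD-labelled library (48.6 to 57.4 RPKM) overlapped. Its fold over wild type in the flbA deletion library was 31.3 (27.0 to 36.4). Glutamate synthase (PDE_02386) had 66.8 RPKM in wild type and 393 in flbA, 5.89-fold higher (5.62 to 6.18), and at most 78.3 RPKM elsewhere.

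For amide and amino acid breakdown 11 genes matched, of which 0 were past 2-fold higher and 8 lower in the flbA deletion library, where 9.8% and 37.4% of all kept genes were. With median-of-ratios scaling those shares of all kept genes were 20.4% and 23.1%. Neither this list nor that for ammonium assimilation was recounted at that scaling. The matches include oxidases of amines rather than of amides or amino acids. These are the primary-amine oxidases PDE_03901, PDE_04289, PDE_00646, PDE_09693 and PDE_02105 and the polyamine oxidase PDE_03481, all past 2-fold lower in flbA. Asparaginase (PDE_08911) was short of the mark there, at 6.97 against 10.8 RPKM in wild type. In the other libraries 0 to 4 were higher and 0 to 4 lower, where 10.9% to 15.2% of all kept genes were higher and 8.85% to 23% lower. The primary-amine oxidases PDE_03901 and PDE_00646, which release ammonium from amines, were at 128 and 38.2 RPKM in wild type and at 7.04 and 1.74 RPKM in the flbA deletion library, 18.2-fold lower (13.6 to 24.97) and 21.9-fold lower (12.1 to 44.2). Of 7 genes matched for purine and urea breakdown outside the set, 6 passed the expression minimum, with 0 to 2 past 2-fold higher and 0 to 3 lower in any comparison. Of all kept genes 9.8% to 15.2% were higher and 8.85% to 37.4% lower in these comparisons. A guanine deaminase (PDE_04410), which turns guanine into xanthine, was at 16.3 RPKM in wild type, 40.3 in wetA and 50.9 in the abaA-labelled library, and 5-hydroxyisourate hydrolase was 3.20-fold lower (2.23 to 4.70) in flbA. No gene matched the words searched for nitrogen regulators.

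Of the 7 loci set aside, nitrate reductase (PDE_00369) was at 0 reads in wild type and 183 RPKM in the flbA deletion library, at least 820.0-fold higher against a floor of 3 reads. Nitrite reductase (PDE_00370) went from 0.297 to 418 RPKM between the same libraries. Its wild-type level rests on 5 reads, so its folds have wide intervals. Nitrite reductase was also above wild type in 6 other libraries, at levels of 4.04 to 11.6 RPKM. The folds were 34.8 (14.7 to 108) in flbB, 17.8 (7.33 to 56.5) in flbC and 18.7 (7.83 to 58.5) in the flbD-labelled library. They were 34.6 (14.6 to 108) in flbE, 13.6 (5.64 to 42.9) in stuA and 38.9 (16.4 to 121) in swi6.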

How the data were processed

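The authors deposited 1 table. For each of 10 libraries the authors give a count of reads placed at 1 position only, an RPKM value made from count, coding length and read total, and the percent of a gene's length that reads covered. CASAVA 1.8 is named in the submitters' processing notes. For the aligner, build and annotation, the version is not given in the sources used here. A dash was read as 0. The deposited counts summed to the header totals. Recomputing RPKM from them gave values that differed by a relative gap of at most 2.57e-08. Lengths are multiples of 3 for 9856 of 9859 genes, so RPKM is per coding length.

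Computed here, in Python 3.11.15 with scipy 1.17.1, were differences of log2(RPKM + 1) from wild type. They cover 9134 genes, those averaging at least 1 RPKM (725 removed). Also computed were RPKM ratios with 95% Clopper-Pearson intervals on the conditional read counts, exact Poisson intervals of levels and Wilson intervals of read shares. These cover counting error only, and reads carry no molecular identifiers. A fold against 0 reads uses a floor of 3 reads. The difference is smaller for weak genes because of the pseudocount of 1 RPKM. No test across libraries was possible with 1 per genotype. The code was tested on simulated data.

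The genes and lists were chosen with earlier results of these data known. Given in full were all genes of a class of at most 3, and in larger classes the 2 highest by mean, the 3 furthest from wild type and those standing apart, if at least 10 RPKM in some library. This took 16 genes. In each other list the 2 furthest from wild type with at least 10 RPKM were given. The 3 genes of the purine route plot, genes among the other 9 transporters and further genes named from the other lists were named after their values were seen. Locus numbers matched 0 entries of the RefSeq gene table supplied, so no coordinates or sequences are given.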

Additional observations from a re-analysis of the deposited data

How the results depend on the processing

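With no replicates, no result has a spread between cultures. Counts of genes higher and lower in each comparison were recomputed with pseudocounts of 0.1 and 5, other scalings, other expression minimums, a 4-fold mark and a counting interval wholly beyond 2-fold. At 4-fold, the genes higher were 5 (flbA), 4 (flbB), 4 (flbC), 4 (labelled flbD), 3 (flbE), 5 (labelled abaA) and 3 (swi6), and those lower 2 in flbA and 0 in flbB, flbE, stuA, swi6 and the libraries labelled flbD and abaA, by construction of the stricter mark. Median-of-ratios scaling gave 5 lower in flbA, 1 in flbB, 2 in flbC, 1 in the library labelled flbD, 0 in stuA and 1 in swi6. It moved the median of all kept genes in the flbA comparison from -0.64 to 0.01. A pseudocount of 0.1 gave 2 lower in flbE, wetA and stuA, and one of 5 gave 2 lower in flbB. The interval rule gave 1 lower in the library labelled flbD and 0 in stuA. The cause of these moves was not tested beyond the stricter marks. Every other count was within 1.5 times of that reported. The medians stayed within their order-statistic intervals, though 2 changed sign. These were flbB, to 0.22 with median-of-ratios scaling, and flbE, from 0.04 to -0.04 without the most abundant gene in the totals. No named gene past 2-fold changed direction under a pseudocount or scaling tried, but sizes did change. Of 144 differences of the genes given in full, 59 moved beyond their counting error with median-of-ratios scaling. With a pseudocount of 5 RPKM 21 moved, and 14 without the most abundant gene. All 144 stayed within it with a pseudocount of 0.1 RPKM.

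The genes higher in all 9 deletion libraries numbered 2 with a pseudocount of 5 and 3 under the other pseudocount, scaling and expression-minimum alternatives. They also numbered 3 without the flbA deletion library and without the libraries labelled flbD and abaA deletion, the latter chosen after seeing the data. Between 7 and 9 genes stood apart in 1 library under these settings, and 6 without the flbA deletion library, likewise chosen after seeing the data. Leaving out genes matched by KEGG text alone could not be run, since it leaves 0 genes. No paired analysis was possible because each genotype is 1 library. Depth limits the genes with few reads, above all PDE_00679, with 4 to 32 reads outside the flbA deletion library.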
